A study of Homo sapiens with 20 samples.

Results

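A set of 10 genes that encode regulators of chromatin and are known to be mutated in bladder cancer was examined for N6-methyladenosine (m6A) peaks in their exons. They were ARID1A, ARID1B and ARID2 of the SWI/SNF remodelling complexes, the histone acetyltransferases CREBBP and EP300, the Polycomb-associated proteins ASXL1 and ASXL2, the corepressor NCOR1, the chromodomain helicase CHD6 and the cohesin subunit STAG2. The genes were chosen by name, and a peak (a stretch where immunoprecipitated RNA exceeded the input) was assigned to a gene when its summit lay in any annotated exon of that gene. By this rule 451 of the 231465 peaks in 10 lists belonged to 9 of the 10 genes, and STAG2 had none. Peaks that overlapped across libraries were merged, which gave 67 exonic regions in these genes out of 25300 exonic regions of protein-coding genes and 43676 merged regions in all.

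The peaks came from MeRIP-seq (immunoprecipitation of methylated RNA, then sequencing), an assay in which fragmented RNA is pulled down with an antibody against m6A and compared with the input RNA. T24R2 and T24 each gave 5 libraries. They were made from T24, a human bladder cancer cell line that is sensitive to cisplatin, and from T24R2, a line derived from T24 by repeated exposure to cisplatin and maintained in the drug. Both were labelled wild type (WT) and were harvested at day 3, so each group stands for a single cell line and the drug in the medium cannot be told apart from the resistance. The labels do not say whether the replicates were separate cultures, so p-values below measure only the spread between these libraries. The 10 input libraries carried no peak list and were not analysed here.

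m6A is the most common internal modification of messenger RNA. It is deposited by the METTL3 and METTL14 methyltransferase at a subset of DRACH sequences (where R stands for A or G, D for any base but C and H for any base but G), and reader proteins that bind it affect splicing, decay and translation. In vertebrate transcripts it is found mainly in long internal exons, around stop codons and in 3′UTRs, and exon junction complexes are known to keep the enzyme away from short exons. The proteins studied here set the state of chromatin. SWI/SNF complexes move nucleosomes, CREBBP and EP300 acetylate histones at enhancers, ASXL proteins activate the BAP1 deubiquitinase, NCOR1 carries the HDAC3 deacetylase to silenced genes, and cohesin forms chromosome loops.

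Each list held between 17203 and 33120 peaks, at 20460 ± 2082 for T24 and 25840 ± 4203 for T24R2 (mean ± SD, n = 5 each). The longest list was that of T24R2 replicate 5, in which 4512 regions were found in no other library, against 259 to 1503 in the others. Library totals of reads are not in the lists, so the depth is unknown and a missing peak is not evidence that a site is unmethylated. Of 12 urothelial, epithelial and mesenchymal markers, 5 had an exonic region and only KRT7, a keratin of simple epithelia, had one in all 10 libraries. GATA3, a urothelial transcription factor, and VIM, a mesenchymal filament protein, each had a region called in all 5 libraries of T24 and in 0 of T24R2. However, a peak does not measure expression and the identity of the lines could not be checked this way.

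The sequences below show the methylation motif closest to the median summit in regions that the results turn on. These are the regions of the last exon of 8 genes and the regions in internal exons of ARID1A, CREBBP and EP300. Each has 25 nt of the sense strand, 5′ to 3′, from the GENCODE 44 transcript (hg38), with the DRACH match in capitals.
ARID1A exon 18 (chr1:26774908-26774932, plus strand): gtgccccccaTGACAaggccccctc
ARID1A exon 20 (chr1:26779533-26779557, plus strand): cggaagcatgTGACAacagcagagg
ARID1B exon 20 (chr6:157207419-157207443, plus strand): acaataatgtGGACCtgatcttggc
ARID2 exon 21 (chr12:45905094-45905118, plus strand): acacagtgggGGACTcaaagtcagc
CREBBP exon 2 (chr16:3850533-3850557, minus strand): aactttaaccAGACCcacccaggcc
CREBBP exon 3 (chr16:3810735-3810759, minus strand): aagtccatttGGACAgccctttagt
EP300 exon 2 (chr22:41117629-41117653, plus strand): tgcaggcaatGGACAagggataatg
EP300 exon 3 (chr22:41125908-41125932, plus strand): tcagaatcctGGACAgcagattgga
CREBBP exon 31 (chr16:3728013-3728037, minus strand): cgtcccttagTAACCaggtgcggtc
ASXL1 exon 13 (chr20:32436728-32436752, plus strand): gaccaagcacAAACTccatgtctgg
ASXL2 exon 13 (chr2:25742831-25742855, minus strand): tgggatatacAGACTgtaaaaatgc
NCOR1 exon 46 (chr17:16032175-16032199, minus strand): ttattccctgAGACTtttcaggaga
CHD6 exon 37 (chr20:41405036-41405060, minus strand): ggtacggcagTGACTgaaaagactg

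A DRACH match lay within 50 nt of the summit in 21 of the 22 regions (95.5%) whose summit was in an exon of the representative transcript in all 10 libraries, and on the opposite strand in 10 of 22 (45.5%). Over 6800 such regions of other genes the shares were 93.4% and 70.2%. The matched sequences were of many kinds, and the shorter core GGAC was found in 9 of the 22 windows (40.9%, against 53.0% in other genes). The region in exon 31 of EP300 had no DRACH match in its window. A match describes the sequence and does not show which adenosine carried the mark.

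Of the 10 genes, 9 had an exonic peak, beside 10237 (51.1%) of 20046 protein-coding genes with one in any library. All 9 had at least 1 region called in all 10 libraries. Over all protein-coding genes, 5606 (28%) had such a region. The 10 genes have long transcripts (6179 to 12849 nt), and the number of regions in the 9 genes with peaks ranged from 5 in ASXL2 to 10 in ARID1B. Of the 67 regions, 28 (41.8%) were called in all 10 libraries, against 31.5% of all exonic regions, 22 in 2 to 9 libraries and 17 (25.4%, against 20.7%) in a single library. T24R2 replicate 5 alone held 11 of the 17 and T24 replicate 5 held 4, so that 6 of the 17 came from libraries other than T24R2 replicate 5. Median percentiles of fold enrichment were 59.4 for peaks of the 28 regions and 27.6 for peaks of the 17. Over exonic regions of protein-coding genes they were 67.4 and 25.5, so the 28 regions ranked below that background. The percentile is the rank of a peak's fold enrichment within its own library's list, from 0 to 100, and the fold enrichment is that of the immunoprecipitate over the local background as given by the peak caller.

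**Figure D1:**
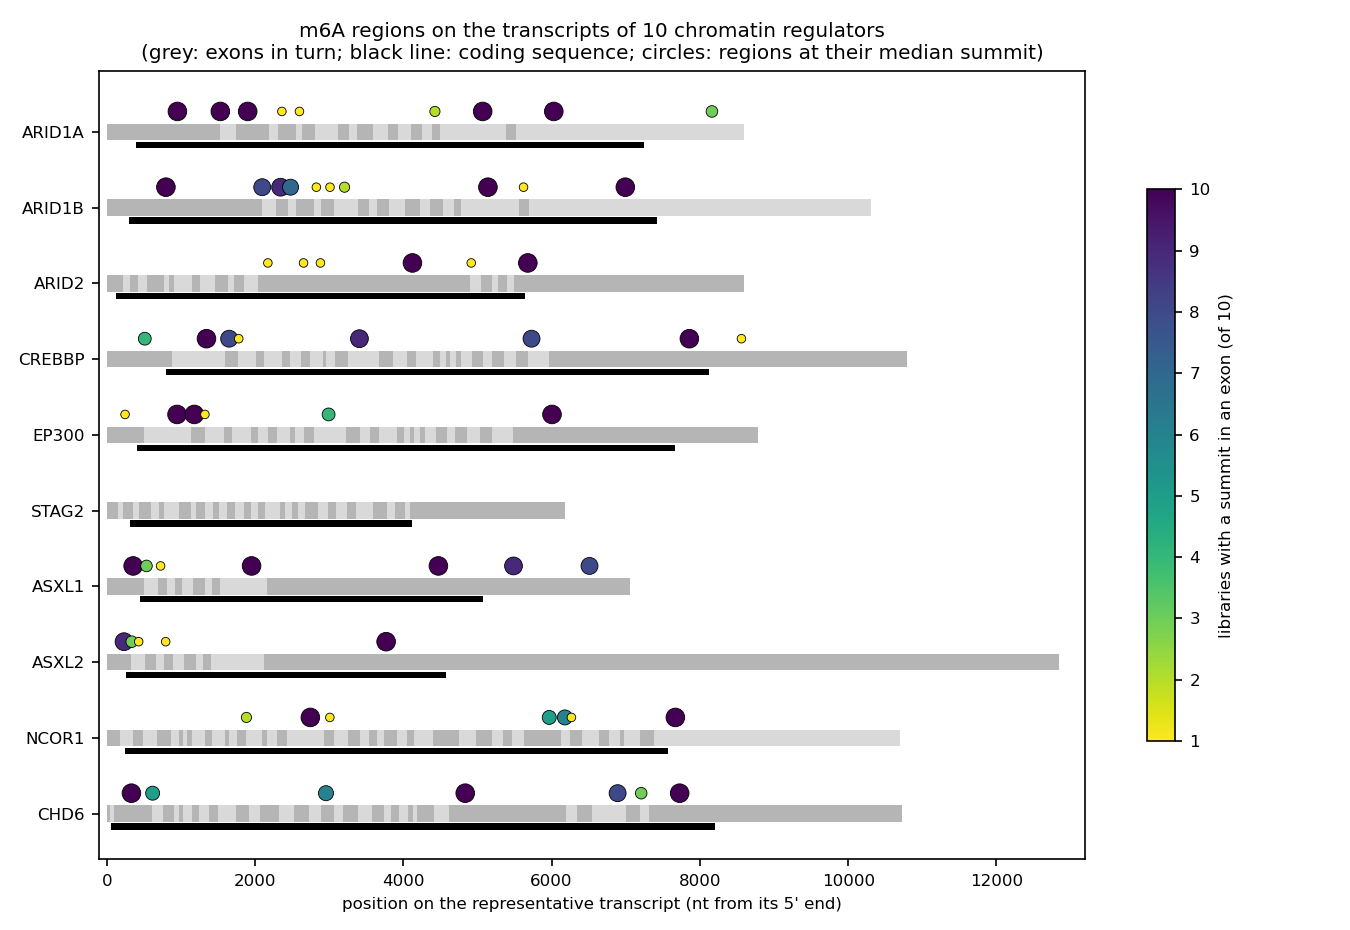
Positions of the exonic regions on the representative transcripts (horizontal axis, nt from the 5′ end), with exons in alternating greys, the coding sequence as a black line and each region as a circle at its median summit, coloured and sized by the number of libraries with a summit in an exon. Circles of all 10 libraries sat on exons of at least 400 nt, other than those of ARID1A exon 2 and EP300 exon 3, and STAG2 had no circle.

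The marked exons were the long ones. The representative (MANE Select) transcripts of the 10 genes have 267 exons, of which 30 are at least 400 nt long. A summit in all 10 libraries was found in 22 of these 30 (73.3%) and in 0 of the 237 shorter exons, and a summit in any library in 28 of 30 (93.3%) and 30 of 237 (12.7%). In 5597 other genes with an exonic region called in all 10 libraries, 67.6% of 9016 long exons and 0.762% of 54310 short exons had a summit in all 10. STAG2 has no such region, and in the 9 genes without it the share was 75.9% of 29 long exons. The median length was 1833 nt for the 22 marked exons and 139 nt for the others (1645 and 129 nt in the other genes). The short exons with the most libraries included ARID1A exon 2 (213 nt, 9 libraries) and EP300 exon 3 (177 nt, 8 libraries), where the summits of the remaining libraries lay in an exon of another transcript. The long exons of the 10 genes without any summit were exon 35 of STAG2 (2083 nt) and exon 12 of ASXL2 (718 nt).

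**Figure D2:**
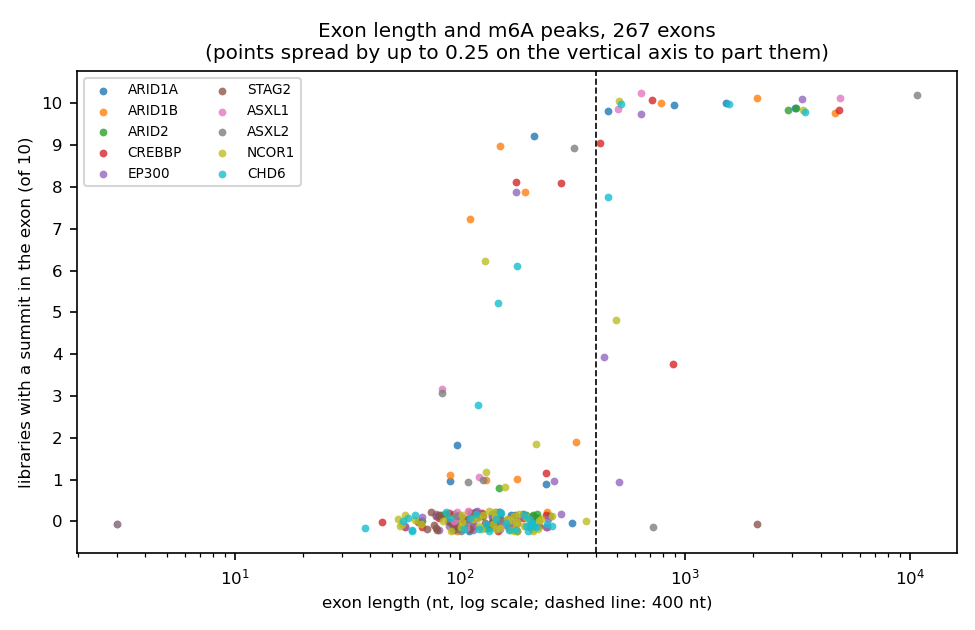
Length of each of the 267 exons (horizontal axis, nt, log scale, dashed line at 400 nt) against the number of libraries with a summit in it (vertical axis, of 10), coloured by gene. Exons with a summit in all 10 libraries were all longer than 400 nt, and most shorter exons were at 0.

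The regions lay mostly in coding sequence. Of the 22 regions, 19 (86.4%) had the median summit in the coding sequence, 1 in a 5′UTR and 2 in a 3′UTR, and 9 (40.9%) were in the last exon, whereas 59.2% of 7139 regions in other genes were in coding sequence, 35.8% in the 3′UTR and 62.3% in the last exon. Each of the 9 genes had 1 such region in its last exon. In 7 of them the median summit was upstream of the stop codon, by 268 nt in CREBBP, 428 nt in ARID1B, 482 nt in CHD6, 598 nt in ASXL1, 805 nt in ASXL2, 1218 nt in ARID1A and 1653 nt in EP300. In ARID2 and NCOR1 it was 40 and 103 nt downstream of the stop codon. The median was taken over the strongest summit of each library, and several regions were broad. Single summits spread over 1905 nt in CREBBP, 1612 nt in ARID1B, 1941 nt in ASXL1 and 1356 nt in ASXL2. These spreads exceed the distances given for the 4 genes. In ARID1A, CHD6 and EP300 the spread was smaller than the distance (534, 427 and 185 nt). No test was made of the shares by part of the transcript, since exon lengths differ between genes.

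ARID1A (chr1:26693236-26782104) and ARID1B (chr6:156776020-157210779), the alternative AT-rich interaction domain subunits of the BAF complex, had 9 and 10 regions. In ARID1A, 5 regions were called in all 10 libraries, in exons 1, 2, 3, 18 and 20. The fold enrichment in exon 18 (892 nt) was 2.20, 3.41, 6.15, 6.56 and 6.86 in T24 replicates 1 to 5 and 5.08, 8.54, 7.90, 5.51 and 11 in T24R2. The groups overlapped, with 18 of 25 pairs higher in T24R2 after centring. In exon 20 (3082 nt) it was 7.95, 5.996, 7.96, 6.56 and 3.36 in T24 and 6.47, 10.1, 6.36, 8.96 and 10.2 in T24R2, where T24 replicate 5 was the lowest of all. Exon 3 had the lowest mean percentile of the 5, at 21.5 ± 23.4 in T24 and 20.7 ± 14.9 in T24R2 (mean ± SD, n = 5).

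ARID1B carried the region of highest rank among the 10 genes. In exon 1 (2094 nt) the fold enrichment was 18.1, 8.74, 9.47, 20.6 and 14.3 in T24 and 13.2, 14.4, 9.68, 14.4 and 15.5 in T24R2, with percentiles of 85.6 ± 14.3 and 88.9 ± 5.35. An exon of the gene with the identifier ENSG00000271551 overlaps this region, and the lists give no strand, so its peaks cannot be assigned to ARID1B with certainty. In exon 20 (4613 nt) the values were 13.5, 14.2, 26.7, 5.80 and 16.6 in T24 and 6.90, 13.1, 4.80, 10.4 and 14.1 in T24R2. T24 replicate 4 was far below the other T24 libraries, and T24R2 replicates 1 and 3 were the lowest of their line. Exons 2, 3 and 4 of ARID1B (195, 150 and 111 nt) were short exons with a region in all 10 libraries, but the summit lay inside an exon in 8, 9 and 7 of them.

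ARID2 (chr12:45729706-45908040), the subunit specific to the PBAF complex, had 6 regions, and 4 of them came from T24R2 replicate 5 alone. Its large internal exon 15 (2861 nt) had fold enrichments of 8.17, 11.3, 13.7, 10.1 and 8.31 in T24 and 6.51, 11.8, 6.28, 8.18 and 9.96 in T24R2. The region just past the stop codon in exon 21 had 13.6, 4.35, 11.97, 7.35 and 11.1 in T24 and 10.9, 7.36, 9.11, 9.54 and 14 in T24R2. Values of the lines overlapped in both exons.

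CREBBP (chr16:3725054-3880713) and EP300 (chr22:41092592-41180077), paralogous acetyltransferases, had 8 and 6 regions. The strongest of each gene was in exon 2, which was 713 nt long in CREBBP and 635 nt in EP300. In CREBBP exon 2 the fold enrichment was 12.1, 10.5, 12.6, 15.0 and 9.01 in T24 and 12.3, 17.9, 8.25, 14.9 and 14.8 in T24R2, with percentiles of 83.1 ± 6.59 and 87.7 ± 9.95. In EP300 exon 2 it was 11.6, 10.9, 14.2, 11.7 and 9.60 in T24 and 6.87, 11.1, 6.67, 9.92 and 24.3 in T24R2. T24R2 replicate 5 was the highest library, and replicates 1 and 3 of the same line were the lowest. In the last exon of EP300 (3305 nt) the values were 12.4, 7.60, 10.2, 10.99 and 8.74 in T24 and 4.60, 7.75, 6.89, 10.3 and 10.96 in T24R2.

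Exon 1 of CREBBP held a region called in more T24R2 than T24 libraries in the full lists and less clearly so in shorter ones. It did not pass after adjustment (exact p = 0.0476 by Fisher's test, adjusted p = 0.517). A peak with its summit in the 5′UTR, 285 nt before the start codon, was seen in 0 T24 libraries and in 4 of the 5 T24R2 libraries, and only T24R2 replicate 1 lacked it in that line. Its percentiles in the 4 libraries were 41.1 ± 25.2. Its summits spread over 387 nt, and no DRACH match lay within 50 nt of the median summit. In EP300 a region spanning the gene start was called in all 10 libraries with 18 peaks, but 17 of these had their summit outside the exons and only T24 replicate 2 had one in exon 1.

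ASXL1 (chr20:32358330-32439319) and ASXL2 (chr2:25733753-25878487) have last exons of 4888 and 10724 nt. In ASXL1 the broad region in the coding part of exon 13 (3070 nt wide) had fold enrichments of 8.19, 7.09, 10.8, 8.57 and 7.75 in T24 and 9.19, 10.6, 8.97, 11.1 and 11.1 in T24R2. T24R2 was higher in 20 of 25 pairs after centring, and the percentiles were 64.1 ± 8.53 and 77.4 ± 3.85. The centred log2 difference was only 0.18 (interval -0.29 to 0.65, adjusted p = 0.798 by limma), which did not pass. Over all regions tested the percentile also shifted towards T24R2, by a median of 4.8. Other regions leaned to T24, with T24R2 higher in 3 of 25 pairs in EP300 exon 31. It was higher in 4 of 25 in both ARID2 exon 15 and ARID1B exon 20. A pair of weaker regions followed in the 3′UTR of ASXL1, in 4 and 3 of 5 T24 libraries and in 5 of 5 T24R2 libraries each. ASXL2 had a region in the coding part of its last exon in all 10 libraries, at 10.5, 14.8, 7.81, 7.05 and 6.72 in T24 and 5.71, 9.003, 10.4, 9.61 and 5.71 in T24R2, and none in its 8276 nt of 3′UTR. Both genes had a region in exon 1, which was called in 10 libraries for ASXL1 and in 9 for ASXL2, where T24R2 replicate 1 lacked it.

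NCOR1 (chr17:16029065-16218185) had 7 regions, and those in exon 20 (508 nt) and at the start of the 3′UTR in exon 46 were called in all 10 libraries. In exon 46 the fold enrichment was 9.60, 5.11, 7.81, 4.85 and 7.37 in T24 and 7.14, 7.98, 4.499, 5.44 and 7.84 in T24R2. The region of exon 37 had a peak in 1 library of T24 and 4 of T24R2 (exact p = 0.206 by Fisher's test, adjusted p = 1), and that of exon 38 in 2 and 5 (exact p = 0.167, adjusted p = 1). NCOR1 was also unusual in having 31 peaks with the summit inside the gene and outside its exons, against 0 to 7 in the other genes, and 18 of the 31 were in a pair of regions near its 5′ end that were each called in 5 T24 and 4 T24R2 libraries. This pair lay outside the representative transcript, upstream of its first exon. The lists give no strand, so the 18 peaks cannot be assigned to NCOR1 with certainty.

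CHD6 (chr20:41402083-41618384) had 8 regions, with those in exons 3, 31 and 37 called in all 10 libraries. In exon 31 (1572 nt) the fold enrichment was 6.01, 7.87, 10.3, 11.3 and 12.2 in T24 and 7.71, 9.46, 9.94, 3.64 and 3.36 in T24R2. T24R2 replicates 4 and 5 were the lowest of the 10 libraries, and the other T24R2 libraries were within the range of T24. In exon 37 (3407 nt) it was 7.29, 10.3, 11.7, 8.48 and 7.55 in T24 and 10.3, 10.8, 11.5, 8.24 and 9.78 in T24R2. Exon 34 (453 nt) had a region in 3 T24 and 5 T24R2 libraries.

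STAG2 (chrX:123960212-124422664) had 0 peaks in any of its 35 exons or introns in all 10 libraries. Its last exon, at 2083 nt, was its only exon of at least 400 nt. Its paralogue STAG1 had 2 exonic regions and neither was called in all 10 libraries. The lists hold no expression, so a transcript at a low level cannot be told apart from one without marked sites.

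**Figure D3:**
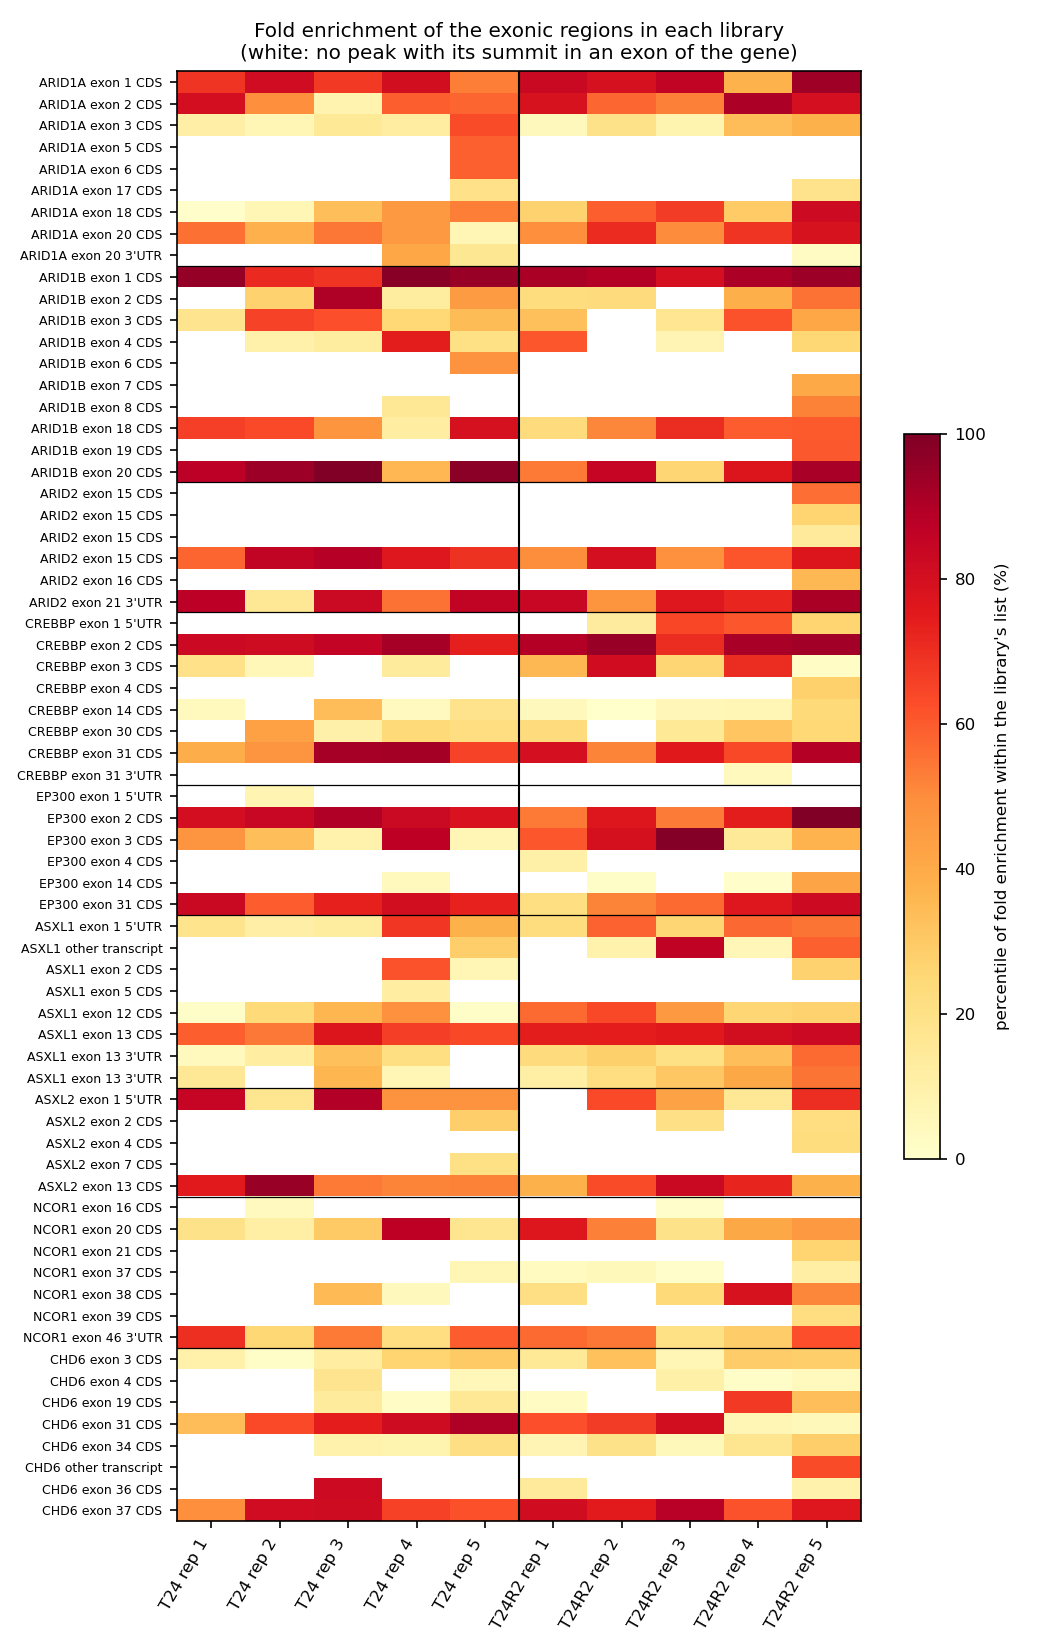
Percentile of fold enrichment of the 67 exonic regions (rows, in transcript order within each gene) in the 10 libraries (columns), where white marks libraries with no peak whose summit lay in an exon. Rows of ARID1B exon 1 and CREBBP exon 2 were high throughout, and cells filled only in the last column are the 11 regions of T24R2 replicate 5.

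Between the lines, the regions were tested first by presence. None of the 67 regions was called in 5 of 5 libraries of a line and 0 of 5 of the other, whereas 3.02% of all 43676 regions were found only in T24R2 by this rule and 1.05% only in T24. By the two-sided Fisher's exact test 1 region, CREBBP exon 1, had an unadjusted p under 0.05 (exact p = 0.0476, adjusted p = 0.517). Over all regions 7.11% passed that level with more T24R2 libraries and 2.09% with more T24 libraries, and after Benjamini-Hochberg adjustment 0% did. Regions with a full split, 5 of 5 against 0 of 5, have the smallest p of this test and did not pass either. The adjusted test could therefore not call any region in these lists. The region that passed at the unadjusted level was not the same throughout. With equal list lengths CREBBP exon 1 had 0 and 2 libraries, and NCOR1 exon 38, with 1 and 5, was the only one to pass. At −log10 q of at least 10 CREBBP exon 1 had 0 and 1 libraries and NCOR1 exon 38 had 0 and 4, and 3 regions passed. More T24R2 than T24 libraries were found for 26 of the 67 regions and the reverse for 8. The share over all regions is not given for this count, so it is not read as a trait of these genes. T24R2 lists were longer, and over all regions the unadjusted Fisher calls also leaned to T24R2. Of the 26, 11 were the regions of T24R2 replicate 5 alone, and with equal list lengths the counts were 17 and 8.

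Fold enrichment was compared over the 28 regions with a peak in all 10 libraries, as centred log2 values with limma. Of these, 0 had an adjusted p under 0.05 and 0 an unadjusted p under 0.05, while 0.512% of 9577 regions tested were higher in T24R2 after adjustment, 0.313% were higher in T24 and 13.9% had an unadjusted p under 0.05. The difference, T24R2 minus T24, was above 0 in 13 regions and below 0 in 15, with a median of -0.04 beside 0.02 for all regions tested. It ranged from -0.69 ± 0.34 in ARID1B exon 20 (95% interval -1.39 to 0.01, adjusted p = 0.372 by limma) to 0.57 ± 0.32 in ARID1A exon 18 (SE, interval -0.09 to 1.23, adjusted p = 0.453 by limma). CHD6 exon 31 was at -0.68 ± 0.34 (SE, interval -1.39 to 0.03, adjusted p = 0.382 by limma). The 28 intervals together reached from -1.39 to 1.23, so that these data do not show that the lines were alike. Single libraries moved these values, to -1.03 in ARID1B exon 20 without T24 replicate 4 (adjusted p = 0.115 by limma, and up to 0.616 over all alternatives), to 0.28 in ARID1A exon 18 without T24 replicate 1 and to -0.43 in CHD6 exon 31 without T24R2 replicate 5. In 4 of the 28 regions, those of ARID1B exons 2, 3 and 4 and EP300 exon 1, some values came from peaks with the summit outside the exon. For EP300 exon 1 only T24 replicate 2 had an exonic summit, so its difference is not one of exonic peaks.

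**Figure D4:**
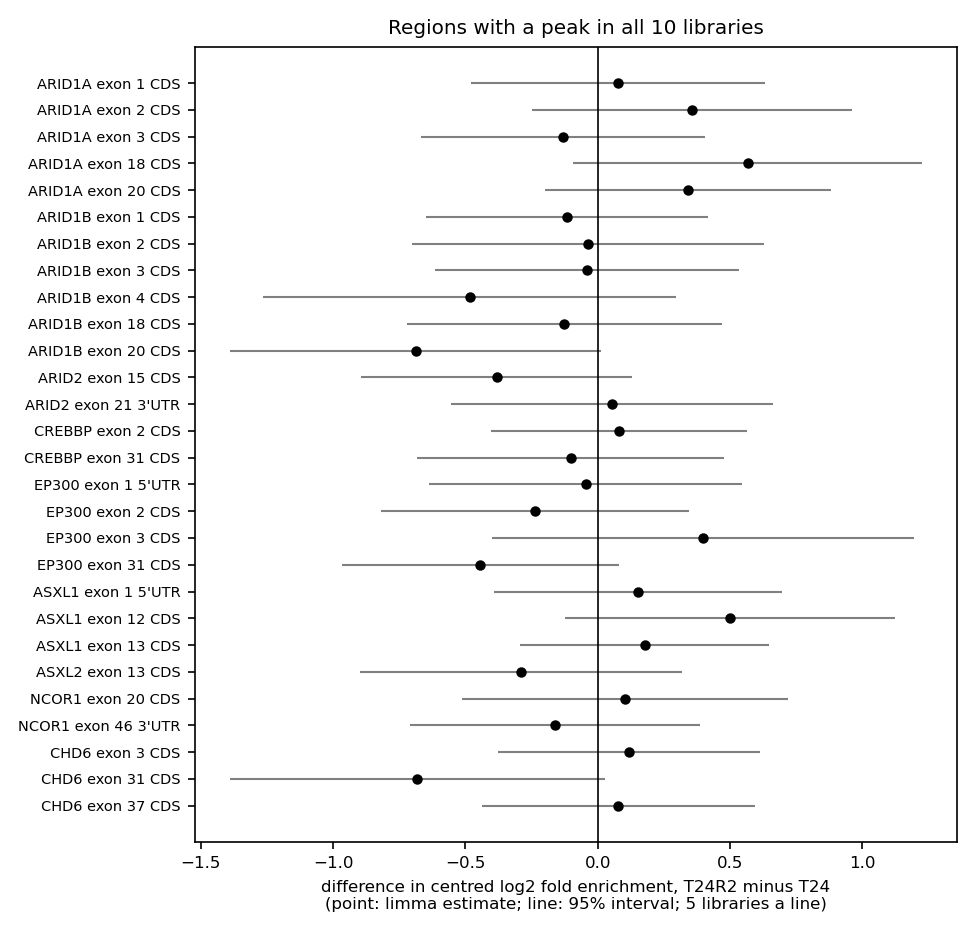
Difference in centred log2 fold enrichment, T24R2 minus T24 (horizontal axis), for the 28 regions called in all 10 libraries, as the limma estimate with its 95% interval (n = 5 libraries a line). Every interval included 0. The row of EP300 exon 1 rests almost wholly on peaks with the summit outside the exons.

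The number of exonic peaks per library was 35, 41, 49, 47 and 50 in T24 and 43, 37, 49, 41 and 59 in T24R2, or 44.4 ± 6.31 and 45.8 ± 8.56 (SD, n = 5). Without T24R2 replicate 5 the mean of T24R2 was 42.5. The lines overlapped. Relative to list length the order was the other one, with 21.8 ± 2.88 exonic peaks of these genes per 10000 in T24 and 17.7 ± 1.80 in T24R2, and with equal list lengths the means were 39.2 ± 4.55 and 37.8 ± 2.78 peaks. The exonic bases of these genes covered by peaks were 23420 ± 1675 in T24 and 28760 ± 2331 in T24R2, with the lowest T24R2 library (25449) below the highest T24 library (25652). Lists of T24R2 were longer over the whole series, and the part of list length in the covered bases was not tested.

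By gene, 0 of the 9 genes differed in peak number by the exact two-sided permutation test at an unadjusted p under 0.05, against 12.9% of 8345 genes with more peaks in T24R2, 4.34% with more in T24 and 0% after adjustment. The smallest p was that of NCOR1, with 2, 3, 3, 3 and 3 peaks in T24 and 4, 3, 5, 3 and 6 in T24R2 (exact p = 0.119, adjusted p = 0.559). ARID1B had 6, 9, 10, 9 and 8 peaks in T24 and 7, 5, 7, 6 and 10 in T24R2 (exact p = 0.294). CREBBP had 5, 5, 6, 6 and 6 in T24 and 6, 5, 7, 7 and 7 in T24R2 (exact p = 0.238). Relative to the length of the lists, as peaks per 10000, the difference, T24R2 minus T24, was -0.86 in ARID1A and -1.45 in ARID1B (exact p = 0.0159 each, adjusted p = 0.0574) and -0.60 in ASXL2 (exact p = 0.0476, adjusted p = 0.125), none of which passed after adjustment. Under this scaling 27.2% of all 8345 genes had fewer peaks in T24R2 at an unadjusted p under 0.05, so that 3 of 9 was near the background. A broad enriched stretch can be called as 1 peak or as several, up to 4 in 1 library for ARID1B exon 1, so a count of peaks is not a count of sites.

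**Figure D5:**
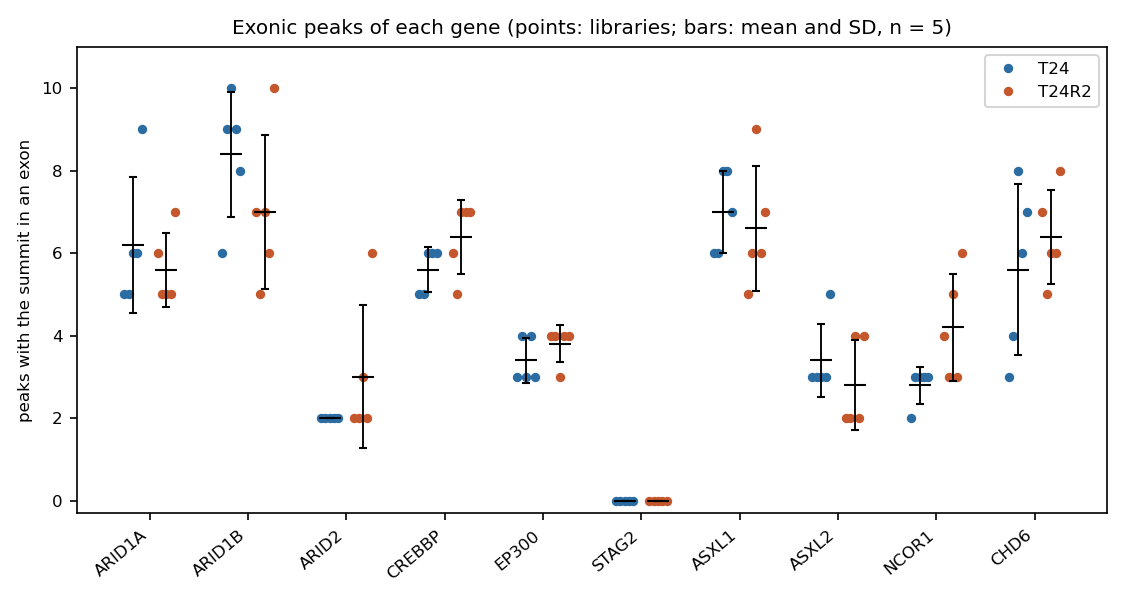
Number of peaks with the summit in an exon (vertical axis) for each gene and library (points, T24 in blue and T24R2 in orange), with the mean and SD of 5 libraries. The lines overlapped in every gene with peaks, and STAG2 was at 0.

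The 3 pairs of paralogues were compared exon by exon. After global alignment of the translated coding sequences, 66.1% of 2314 aligned residues were identical between CREBBP and EP300, 61.4% of 2012 between ARID1A and ARID1B and 37.4% of 1300 between ASXL1 and ASXL2. In CREBBP exon 2 the median summit was at codon 183, which aligned with codon 174 of EP300, and the summit of EP300 exon 2 was at codon 179, 5 codons away. The exon 3 summits were 6 codons apart and those of exon 14 (417 and 438 nt) 9 codons apart. Exon 14 was called in 4 T24 and 5 T24R2 libraries in CREBBP and in 1 and 3 in EP300. The regions of the last exon of CREBBP and EP300 were called in all 10 libraries in both genes, but with median summits 454 codons apart. In ARID1A and ARID1B the summits of exon 2 were 0 codons, those of exon 3 were 3 codons and those of exon 18 (892 and 784 nt) were 39 codons apart. Exon 1 and the last exon were also called in all 10 libraries in both, with the summits of exon 1 at 190 codons apart and those of the last exon farther apart. In ASXL1 and ASXL2 the summits in exon 13 were 62 codons apart, while exon 12 was called in all 10 libraries in ASXL1 (634 nt) and in 0 in ASXL2 (718 nt). Nearness was not tested, and summits within a short exon cannot lie far apart. In broad regions the median summit is only a rough position. Single summits spread over 2343 nt in ARID1B exon 1, 1905 nt in CREBBP exon 31 and 1941 nt in ASXL1 exon 13. Lengths of paired exons were alike in some cases (177 nt for exon 3 of both CREBBP and EP300) and not in others (453 and 150 nt for exon 3 of ARID1A and ARID1B, 4888 and 10724 nt for exon 13 of ASXL1 and ASXL2). The nearest motifs were GGACA in exon 3 of both CREBBP and EP300, and AGACC against GGACA in exon 2.

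Related genes, taken from lists of the same complexes and families, gave a background for these genes. Of 68 other genes, 53 had an exonic region and 34 had one in all 10 libraries, and 65 of their 214 regions were called in all 10. For SWI/SNF subunits the numbers were 19 of 25 with a region and 10 in all 10, for cohesin and its regulators 12 and 8 of 14, for NCOR1 partners 4 and 3 of 5, for ASXL and BAP1 partners 5 and 5 of 9, for other lysine acetyltransferases 6 and 3 of 7 and for other CHD proteins 7 and 5 of 8. In limma 0 of their 65 regions had an adjusted p under 0.05.

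Of the 214 regions of the related genes, 5 were found in all libraries of a line and in none of the other. Over all merged regions the share was 4.07%, which 5 of 214 does not exceed. SMC1A, the cohesin core ATPase, had one in exon 5 in T24R2 only, at percentiles of 0.0459 to 7.23, among the weakest peaks of those lists. BICRA, a subunit of the non-canonical BAF complex, had one in coding exon 8 in T24R2 only, with fold enrichments of 8.04 to 10.6. CHD7, a chromodomain helicase related to CHD6, had one in coding exon 35 in T24 only, at 6.13 to 12.7. BCL7A, an accessory SWI/SNF subunit, had a pair in T24 only, at 9.97 to 18.0 and 4.94 to 11.2, in exons of transcripts other than the representative one, and the first overlapped an exon of ENSG00000255856. For all 5, the adjusted Fisher p did not reach 0.05, a level that no region could reach here even with a full split.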

How the data were processed

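MeRIP-seq peak lists of 5 T24 and 5 T24R2 immunoprecipitates were analysed. According to the study's methods and the labels, reads were aligned to hg38 (GENCODE v39) with STAR 2.7.0, filtered for unique, non-duplicate reads with SAMtools 1.10, and peaks were called in each library against its input with MACS2 3.0.0a6. The deposited lists give, as computed by the authors' peak caller, a display score, the fold enrichment (a ratio over local background), −log10 p and −log10 q values and the summit. Replicates were not pooled, and a merged list of all peaks was not used.

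The 10 genes and the lists were chosen with earlier results of these data known. Exons came from GENCODE 44 (hg38), and the representative transcript was MANE Select. Overlapping peaks were merged across the 10 libraries, and a library had a region when at least 1 of its peaks fell in it. Presence was tested with Fisher's exact test over 43676 regions, log2 fold enrichment, centred on each library's median, with limma 3.58.1 (trend, robust) over 9577 regions, and peaks per gene by exact permutation (252 arrangements) over 8345 genes with a peak in enough libraries, each with Benjamini-Hochberg adjustment at 0.05. Scripts used Python 3.11.15, scipy 1.17.1 and biopython 1.88 and were tested on simulated data. Named related genes were those with a line-specific region (5 of 5 against 0 of 5) or an adjusted limma p under 0.05. Alternatives were stricter q values, equal list lengths, cover of regions, representative transcripts, no centring, percentiles, blocking on replicate number and omitting each library in turn. Differential tests on reads in peaks, as used by the study, need reads and were not run here.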

Additional observations from a re-analysis of the deposited data

Results flagged for a closer look

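Exonic peak numbers of single libraries stood apart from the other 4 of their line in 5 cases by Dixon's ratio (over 0.71), a level that chance passes in about 1 in 20 groups. They were ARID1A in T24 replicate 5 (9 peaks, next 6), ASXL2 in T24 replicate 5 (5 peaks, next 3), ARID2 in T24R2 replicate 5 (6 peaks, next 3), EP300 in T24R2 replicate 3 (3 peaks, next 4) and NCOR1 in T24 replicate 1 (2 peaks, next 3). These are small whole numbers with ties, and 3 of the 5 cases differ from the others by no more than 2 peaks. In ASXL2, EP300 and NCOR1 the other 4 libraries were tied, which fixes the ratio at 1 for any difference. The rate of 1 in 20 is for continuous values and does not hold for such counts, so the 5 cases are not read as an excess. The extra regions of ARID1A in T24 replicate 5 and of ARID2 in T24R2 replicate 5 were absent from the other libraries or present in at most 2 more.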

How the results depend on the processing

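No region was found only in a single line in the main analysis, at −log10 q of at least 10, with equal list lengths or with representative transcripts. When peaks had to cover 50% of a region the number was 1 of 67 (NCOR1 exon 38, 0 against 5 libraries), beside 2.72% of all regions. When 4 of 5 against at most 1 of 5 was enough it was 3 of 67 (CREBBP exon 1, NCOR1 exon 37 and an exon of another ASXL1 transcript), beside 10.9% of all regions. Leaving out each library gave 0 to 1, the 1 being CREBBP exon 1 without T24R2 replicate 1. Regions with an unadjusted Fisher p under 0.05 numbered 1 in the main analysis, 3 at −log10 q of at least 10 (4.79% of all regions), 4 with 50% cover (8.24%) and 1 to 3 when a library was left out. The numbers of regions (0 of 28) and genes (0 of 9) with an adjusted p under 0.05 in limma and in the permutation test stayed at 0 under every alternative run. For genes with the replicate block this outcome was fixed in advance, as given below. The replicate numbers did not pair the libraries by the correlation of same-numbered deviations, which was -0.04 to 0.05 for replicates 1 to 4 and 0.12 for replicate 5, where each library was the other's best partner. With the replicate block 0 of 28 regions passed. For genes the block was tested by 32 sign flips, whose smallest p is 0.0625, so no gene could pass and this run decides nothing. Without centring, the median of all regions moved to 0.11 on the log2 scale. The difference in mean peak number, 1.4, was 6.6 at −log10 q of at least 10 and -1.4 with equal list lengths. Shares of marked long exons were 31.4% for exons of at least 200 nt (38.02% in other genes) and 92.9% for at least 1000 nt (79.1%). Without STAG2, which had no peak, the shares were 33.3% and 100% in the 9 genes. A motif lay within 25 nt in 68.2% of regions (75.7%). The order against other genes thus turned at 200 nt and at 25 nt. Setting aside T24R2 replicate 5, chosen after seeing the data, left 6 of the 17 single-library regions. Regions that T24R2 replicate 5 shared with 1 other library, in ARID1A exon 17 and ARID1B exon 8, were not added to the 6. The unknown depth of the libraries limits every absence.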
